A study of Mus musculus with 8 samples.

Results

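Ribosome-bound mRNA was purified from PV+ interneurons, the fast-spiking basket and chandelier cells of the cortex, in 8 samples of mouse primary somatosensory cortex (S1), 4 from mice treated with CNO and 4 from mice treated with vehicle. The comparison described here sets the samples numbered 1 and 2 of both treatments against those numbered 3 and 4 of both treatments, 4 samples against 4. Each side holds 2 CNO and 2 vehicle samples, so the contrast is balanced for the drug. The sides were chosen by the measured expression of these same samples, in which they had been seen to differ, and no label ties the numbers to a date, litter, operator or sequencing run. The difference between the sides is therefore given as a description and without a test, and tests are given only for the drug and for the interaction of the drug with the side.

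All mice were Pvalb Flp/+;Neurod6 Cre/+ and received, as pups, an AAV8 vector that carries HA-tagged Rpl10a, a protein of the large ribosomal subunit, and the Myc-tagged receptor hM3Dq behind the neuronal hSyn promoter. Flp recombinase turned the construct on in Pvalb-expressing cells, and Cre recombinase, made in Neurod6-expressing pyramidal cells, turned it off. hM3Dq is an engineered Gq-coupled muscarinic receptor that is activated by CNO. CNO was given at 1 mg/kg in 5 injections over 48 h, and the controls received vehicle on the same schedule. The study gives P42 to P70 as the age range for these treatments. Both groups carried the receptor, so neither shows the action of CNO without it. Each sample pooled the S1 tissue of 4 brains, and the tagged ribosomes were captured with anti-HA beads.

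Ribosomes bind spliced, exported mRNA in the cytoplasm, and a capture of tagged ribosomes is meant to enrich mRNA of the tagged cells over RNA of the nucleus and of other cells. Introns are removed in the nucleus, and long nuclear RNAs such as Malat1 stay there, so reads of either kind come mostly from RNA that is not being translated. An oligo-dT primed library also reads unspliced RNA where an intron holds a run of A. The sides differed in gene models of the intronic kind, in genes that have near-identical copies, and in some coding genes.

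The files list 45706 genes, of which 17495 passed the count filter. Total counts were 47819465 and 46393621 in CNO replicates 1 and 2, 44087600 and 44064161 in vehicle replicates 1 and 2, 48747160 and 49413273 in CNO replicates 3 and 4, and 48657108 and 49237219 in vehicle replicates 3 and 4. Every sample numbered 3 or 4 was deeper than every sample numbered 1 or 2, although the difference was small beside the totals. The mean was 45591200 ± 1844060 counts (SD, n = 4) in replicates 1 and 2 and 49013700 ± 368701 (SD, n = 4) in replicates 3 and 4. The number of genes with at least 10 counts ran the other way and did not overlap either: it lay between 17735 and 17988 in replicates 1 and 2 and between 17331 and 17719 in replicates 3 and 4. The ratio of counts to TPM gives the transcript length that the quantifier used, and its log2 median for the shortest 25% of genes relative to the longest genes was -1.86 ± 0.018 (SD, n = 4) in replicates 1 and 2 and -1.89 ± 0.011 (SD, n = 4) in replicates 3 and 4. These lengths overlapped between the sides. Vehicle replicate 1 stood apart from the other 7 samples, at 56.6 on the first principal component, which held 37.8% of the variance, where the others lay between -43.4 and 21.3. Most gene lists below are therefore given with and without it.

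Across the genes tested, CPM (TMM-scaled counts relative to the size of the library) did not overlap between the sides for 1117 genes that were higher in replicates 1 and 2, 6.38% of those tested, and for 529 genes that were higher in replicates 3 and 4, 3.02%. A gene is called set apart below if the sides did not overlap, differed by more than 1.5-fold in the fit with treatment as a covariate, and had a mean TPM over 1. There were 308 such genes higher in replicates 1 and 2 (1.76%) and 61 higher in replicates 3 and 4 (0.349%). At the edge of the fold criterion, Tmem151b was just inside at a log2 difference of 0.59 and Rassf6 just outside at 0.58. The CNO samples and the vehicle samples share no library, and the difference of replicates 3 and 4 from 1 and 2 taken in each treatment had the same sign for 71.1% of the 17495 genes, with a Pearson correlation across genes of 0.44 and a Spearman correlation of 0.54. The sides were picked from the expression of all 8 libraries, and that choice can favour agreement between the treatments. Genes are not independent replicates, and the relation describes these 8 libraries.

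The genes higher in replicates 1 and 2 were mostly not coding genes. Of the 308, 75 were protein coding (24.4%, against 83.3% of all genes tested), and 101 were noncoding models that lie within an intron of a coding gene (32.8%, against 3.36% of all genes tested). Of the 61 genes higher in replicates 3 and 4, 50 were protein coding and 1 was an intronic noncoding model. The intronic models carry clone names or Gm numbers and fall mainly in the GENCODE classes TEC, which holds transcripts that await experimental tests, and sense intronic. GENCODE places 74.3% of the tested TEC models on chromosomes 1, 3 and 5, and 41.6% of the 308 genes were on those chromosomes, against 19.98% of all genes tested.

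Noncoding models within an intron and on the strand of the host gene were lower in replicates 3 and 4 almost throughout. The files hold 1133 such models, and 457 of them passed the count filter, which favours models that are not low in one side. Their median log2 difference (replicates 3 and 4 minus replicates 1 and 2) was -0.84, 440 of the 457 (96.3%) were lower in replicates 3 and 4 where 47.4% of all genes tested were, and 171 (37.4%) did not overlap between the sides where 6.38% of all genes tested did so in that direction. A single model, 1 of the 457, did not overlap in the other direction. The median difference was -0.77 in the CNO samples alone and -0.77 in the vehicle samples alone, and 395 models were lower in replicates 3 and 4 within both treatments.

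The same difference was present in the summed level of these models, which uses no filter on single models. The 10 most abundant models held 49.3% of the sum. Over the other 1123, the summed level was 638.3 and 728 CPM in CNO replicates 1 and 2, 941 and 799 CPM in vehicle replicates 1 and 2, 449.5 and 389.7 CPM in CNO replicates 3 and 4, and 490.0 and 538 CPM in vehicle replicates 3 and 4. All 4 samples numbered 1 or 2 were above all 4 numbered 3 or 4. The means were 777 ± 128 and 467 ± 62.9 CPM (SD, n = 4), a ratio of 1.66, which was 1.63 within CNO and 1.69 within vehicle. Vehicle replicate 1 held the highest sum, and without it the mean of replicates 1 and 2 was 722 ± 80.4 CPM (SD, n = 3) and the ratio 1.55. With the 10 most abundant models included the means were 1378 ± 129 and 1076 ± 46.7 CPM, a ratio of 1.28, and the sides again did not overlap.

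**Figure D1:**
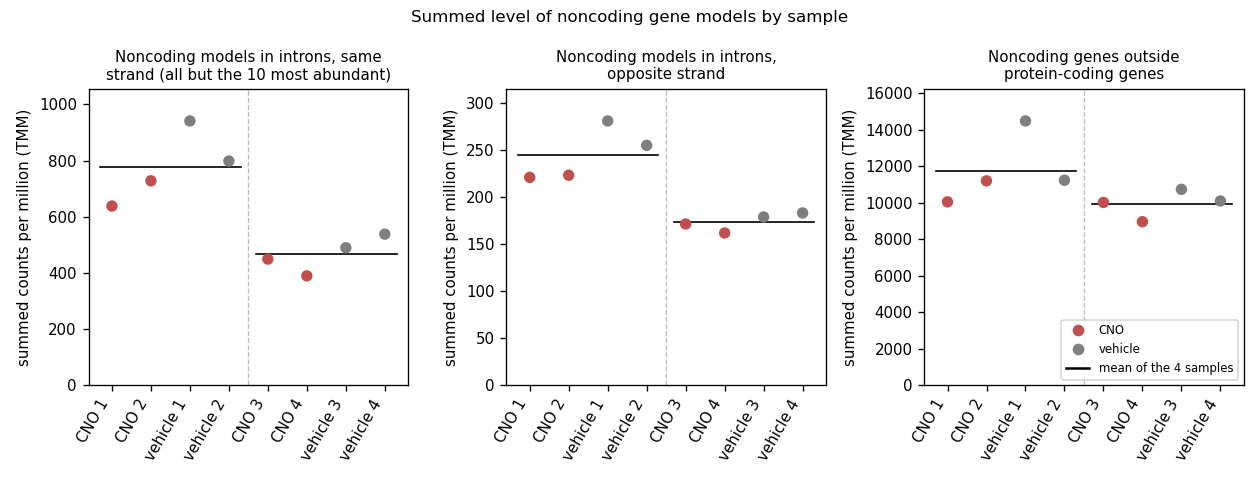
Summed TMM-scaled CPM of noncoding gene models in each of the 8 samples (points, CNO red and vehicle grey), with the mean of each side of 4 samples as a line, for models in introns on the host's strand without the 10 most abundant, models in introns on the opposite strand, and genes outside protein-coding genes. The intronic models in replicates 1 and 2 lie above those in replicates 3 and 4 in the first 2 panels, at 777 against 467 CPM on the host's strand, and the sides overlap in the third.

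The host genes had a median near that of all genes. A host was tested for 447 of the models, and the 303 different hosts had a median log2 difference of 0.02, with 27 not overlapping and higher in replicates 1 and 2 (8.91%) and 14 not overlapping and higher in replicates 3 and 4 (4.62%), where all genes tested had 0.02, 6.38% and 3.02%. The model was lower than its own host in 427 of the 447 pairs (95.5%), by a median of -0.86 on the log2 scale. On log2(TPM + 0.1), which takes in the transcript lengths used by the quantifier, the hosts were at a median of -0.08 (-0.06 for all genes tested), and the model was lower than its host in 410 of the 447 pairs (91.7%), by a median of -0.65. Across the pairs, the differences of model and host had a Spearman correlation of 0.078. Reads of a model and of the unspliced intron that holds it cannot be told apart in these counts, and the strand setting of the counting is not given in the sources used here.

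The median differed by position within the class of TEC models too. TEC models in introns on the host's strand (n = 359) had a median log2 difference of -0.87, and TEC models outside coding genes (n = 133) had a median of -0.35. Sense intronic models (n = 73) were at -0.76. Of the models within an intron but on the opposite strand, 131 were tested, with a median of -0.58, and 37 of them (28.2%, against 6.38% of all genes tested) did not overlap and were higher in replicates 1 and 2. Their summed level was 245 ± 28.5 CPM in replicates 1 and 2 and 174 ± 9.31 CPM in replicates 3 and 4 (SD, n = 4), and it did not overlap. Noncoding genes that overlap a coding exon (n = 974) had a median of -0.21, those outside coding genes (n = 696) had a median of -0.19, and protein-coding genes (n = 14573) had a median of 0.04. The summed level of the noncoding genes outside coding genes overlapped between the sides, at 10042 to 14470 CPM against 8955 to 10728 CPM. Processed and other pseudogenes followed their position as well, with medians of -0.35 in introns on the host's strand (n = 77), -0.38 in introns on the opposite strand (n = 80) and 0.09 outside coding genes (n = 319).

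**Figure D2:**
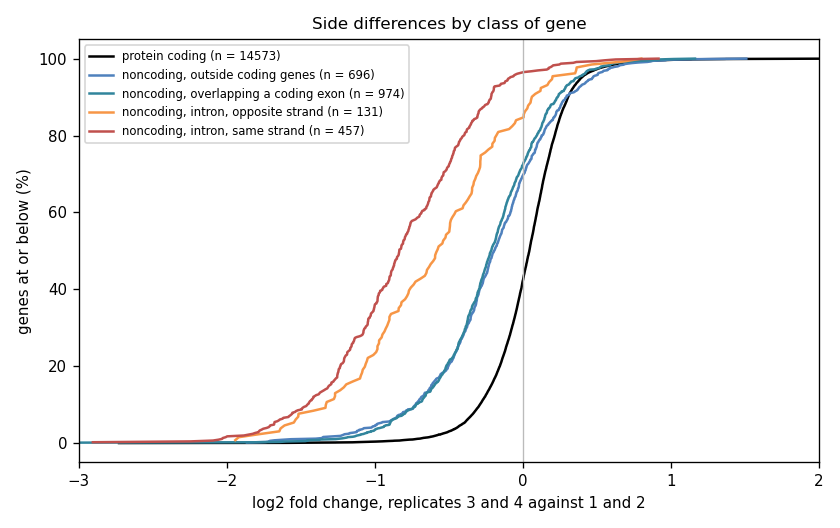
Cumulative share of genes (vertical axis, %) by their log2 difference between replicates 3 and 4 and replicates 1 and 2 (horizontal axis), with 1 curve for each class of gene. The curve for noncoding models in introns on the host's strand lies furthest to the left, with 96.3% of its 457 models below 0, and the curve for 14573 coding genes is centred near 0 at a median of 0.04.

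Values of single models show the same order of samples. The models named next are those set apart with the highest mean TPM among the intronic ones, and they were chosen after the values had been seen. Gm37407 (TEC, chr1:128163214-128164529, GRCm38, plus strand) lies in an intron of R3hdm1. It had 30.9 and 37.5 CPM in CNO replicates 1 and 2, 52.1 and 39.2 CPM in vehicle replicates 1 and 2, 17.8 and 13.1 CPM in CNO replicates 3 and 4, and 22.0 and 22.6 CPM in vehicle replicates 3 and 4. The sides did not overlap, and the log2 difference was -1.09 ± 0.13 (SE). Its host R3hdm1, which encodes a protein with an R3H nucleic acid-binding domain, was set apart too, but by less, at -0.61 ± 0.10 (SE), with 257 to 318 CPM in replicates 1 and 2 and 152 to 213 CPM in replicates 3 and 4.

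Lrig2, which encodes a leucine-rich repeat membrane protein, holds 2 sense intronic models, and the host and the models differed. RP23-357D17.4 (chr3:104470660-104476730) had 19.4, 27.4, 37.3 and 25.3 CPM in CNO 1, CNO 2, vehicle 1 and vehicle 2, and 10.9, 9.63, 12.3 and 16.2 CPM in CNO 3, CNO 4, vehicle 3 and vehicle 4. RP23-357D17.3 (chr3:104499320-104501607) lay between 15.6 and 24.2 CPM on the first side and between 9.93 and 15.2 CPM on the second. Their log2 differences were -1.16 ± 0.16 and -0.68 ± 0.15 (SE). Lrig2 itself was at -0.04 ± 0.10 (SE), with 26.9 to 34.1 CPM and 26.4 to 29.6 CPM, but at -0.43 on log2(TPM + 0.1), where RP23-357D17.3 was at -0.74 and RP23-357D17.4 at -1.21. The same contrast of model and host held for RP24-423L4.1 (chr3:127048976-127052046, -0.87 ± 0.17) in Ank2, which encodes the membrane adaptor ankyrin-B and was at 0.10 ± 0.12, and for RP23-15K13.2 (chr5:134267065-134270736, -0.76 ± 0.12) in Gtf2i, which encodes a general transcription factor and was at 0.01 ± 0.09. On log2(TPM + 0.1) Ank2 and Gtf2i changed sign, at -0.09 and -0.10, and their models were at -0.92 and -0.83. Gm37776 (chr3:65678386-65680882) in Lekr1 was at -0.63 ± 0.17, and Lekr1 at -0.27 ± 0.11.

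In 3 hosts, 4 intronic models each were set apart. Satb1, a chromatin organizer that interneurons of the medial ganglionic eminence need to mature (chr17:51736187-51833290), holds 4 tested models, all 4 set apart, at log2 differences of -1.19 to -0.86. Their summed level was 20.8 and 23.7 CPM in CNO 1 and 2, 34.1 and 24.7 CPM in vehicle 1 and 2, 11.3 and 10.4 CPM in CNO 3 and 4, and 12.5 and 15.4 CPM in vehicle 3 and 4. Satb1 itself overlapped between the sides, at 155 to 202 CPM in replicates 1 and 2 and 173 to 199 CPM in replicates 3 and 4, a log2 difference of 0.06 ± 0.10 (SE). Pcdh7, a protocadherin adhesion gene, holds 9 tested models, all 9 lower in replicates 3 and 4, at -1.73 to -0.97, and was itself at -0.10 ± 0.09 (SE). All 12 tested models in Ank2 were lower, at -1.85 to -0.61. These 3 hosts were chosen after the values of their models were seen, so the values are a description.

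The library kit primes on runs of A, so the longest such run was read from the transcript sequence of each model. It is shown for the 3 of these models with the highest TPM, in GENCODE M21 transcripts of GRCm38, 70 bases each, 5′ to 3′, with the run in capitals. The windows are chr1:128163785-128163854 (plus strand), chr3:104500183-104500252 (minus strand) and chr5:134267065-134267134 (minus strand), each within the single exon of its model and within an intron of the host.
Gm37407: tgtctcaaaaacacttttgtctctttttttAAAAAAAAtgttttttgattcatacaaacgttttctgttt
RP23-357D17.3: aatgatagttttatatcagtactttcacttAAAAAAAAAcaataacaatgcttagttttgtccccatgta
RP23-15K13.2: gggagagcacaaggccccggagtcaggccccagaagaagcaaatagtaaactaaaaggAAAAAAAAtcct
The runs were 8, 9 and 8 bases long. Over all 457 models the median log2 difference was -0.77 for runs of up to 6 bases (n = 190) and -0.87 for 7 to 9 bases (n = 146). It was -0.92 for 10 to 14 bases (n = 82) and -0.89 for longer runs (n = 39). The share of models that did not overlap and were higher in replicates 1 and 2 was 31.6%, 41.1%, 40.2% and 46.2% in that order. Among all genes tested this share was 6.38%. The part of priming on such runs in the difference was not tested. By length of the model, the median was -0.58 in the 43 models of up to 1000 bases, -0.81 in the 126 between 1000 and 2000 bases and -0.87 in the 288 longer ones. The models were richer in A and T than the genes tested as a whole, with a median GC content of 41.0% against 49.4%.

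Long RNAs that stay in the nucleus differed in the direction of the intronic models, by less. All 8 tested members of that list were lower in replicates 3 and 4, with a median log2 difference of -0.29 (0.02 for all genes tested), and -0.25 with 7 of 8 lower when vehicle replicate 1 was left out. Malat1, a nuclear speckle RNA, had 3262 and 3924 CPM in CNO 1 and 2, 6296 and 4249 CPM in vehicle 1 and 2, 3311 and 2866 CPM in CNO 3 and 4, and 3830 and 3328 CPM in vehicle 3 and 4. Its sides overlapped, and its log2 difference of -0.39 ± 0.17 (SE) was -0.23 without vehicle replicate 1. Meg3, an imprinted long noncoding RNA, did not overlap, at 1050 to 1326 CPM against 866 to 1001 CPM and -0.27 ± 0.12 (SE). Their part in the difference of the intronic models was not tested.

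Several of the largest differences of single genes were in genes that share sequence with a copy elsewhere in the genome. A gene was counted as having copies if over 20% of the 31-base words of its transcripts occur in another gene. This held for 8.96% of all genes tested, for 22 of the 61 genes higher in replicates 3 and 4 (36.1%) and for 42 of the 302 annotated genes higher in replicates 1 and 2 (13.9%). Reads from such genes can be assigned to either copy, so their values are uncertain.

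Tuba1c and Tuba1b encode alpha-tubulins, the subunits of microtubules, from neighbouring positions on chromosome 15 (chr15:99029891-99038110 and chr15:98931425-98934565). Over the first 1200 coding bases they differ at 8 positions, and the longest identical stretch is 468 bases. Tuba1c had 15.9 and 34.7 CPM in CNO 1 and 2, 21.9 and 18.3 CPM in vehicle 1 and 2, 1.28 and 1.03 CPM in CNO 3 and 4, and 2.08 and 13.4 CPM in vehicle 3 and 4. The sides did not overlap, but vehicle replicate 4 was far closer to replicates 1 and 2 than the other 3 samples of its side. The log2 difference was -2.73 ± 0.71 (SE). Tuba1b lay between 397 and 498 CPM in replicates 1 and 2 and between 452 and 512 CPM in replicates 3 and 4, a log2 difference of 0.14 ± 0.11 (SE). The counts of both genes together were 468 ± 40.1 CPM and 496 ± 28.7 CPM (SD, n = 4). Tuba1c took 3.42% to 7.35% of that sum in replicates 1 and 2 and 0.201% to 2.62% in replicates 3 and 4. Gm14150, a processed pseudogene that shares 79.8% of its words with other genes, most of them with Tuba1b, had the same profile, with 4.94 to 11.7 CPM in replicates 1 and 2, 0.757 to 0.985 CPM in CNO 3, CNO 4 and vehicle 3, and 4.16 CPM in vehicle 4.

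Copies of ribosomal protein genes were higher in replicates 1 and 2 too, with Rpl17-ps5 at -3.21 ± 0.75 (SE) and Rps19-ps6 at -1.70 ± 0.40 (SE). Rpl17-ps5 shares all of its words with other genes and had 2.84 to 6.13 CPM in replicates 1 and 2, 0.0631 to 0.171 CPM in CNO 3, CNO 4 and vehicle 3, and 1.76 CPM in vehicle 4. Its parent Rpl17, a protein of the large ribosomal subunit, ran the other way, with 13.8 to 30.4 CPM in replicates 1 and 2 and 30.1 to 43.5 CPM in replicates 3 and 4, at 0.67 ± 0.21 (SE), and its sides overlapped. Among the copies higher in replicates 3 and 4, Gm6356 had 0.317 to 0.726 CPM in replicates 1 and 2 and 4.21 to 8.10 CPM in replicates 3 and 4, a log2 difference of 3.29 ± 0.27 (SE). Gm14253, a processed pseudogene of Pdcd10 that lies in an intron of Cnbd2, had 0.149 to 0.339 CPM and 1.17 to 2.14 CPM, a log2 difference of 2.92 ± 0.29 (SE), and Pdcd10 itself, which encodes a small adaptor protein linked to cerebral cavernous malformations, was at 0.06 ± 0.16 (SE). For Gm6356 and Gm14253 vehicle replicate 4 sat with its own side.

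**Figure D3:**
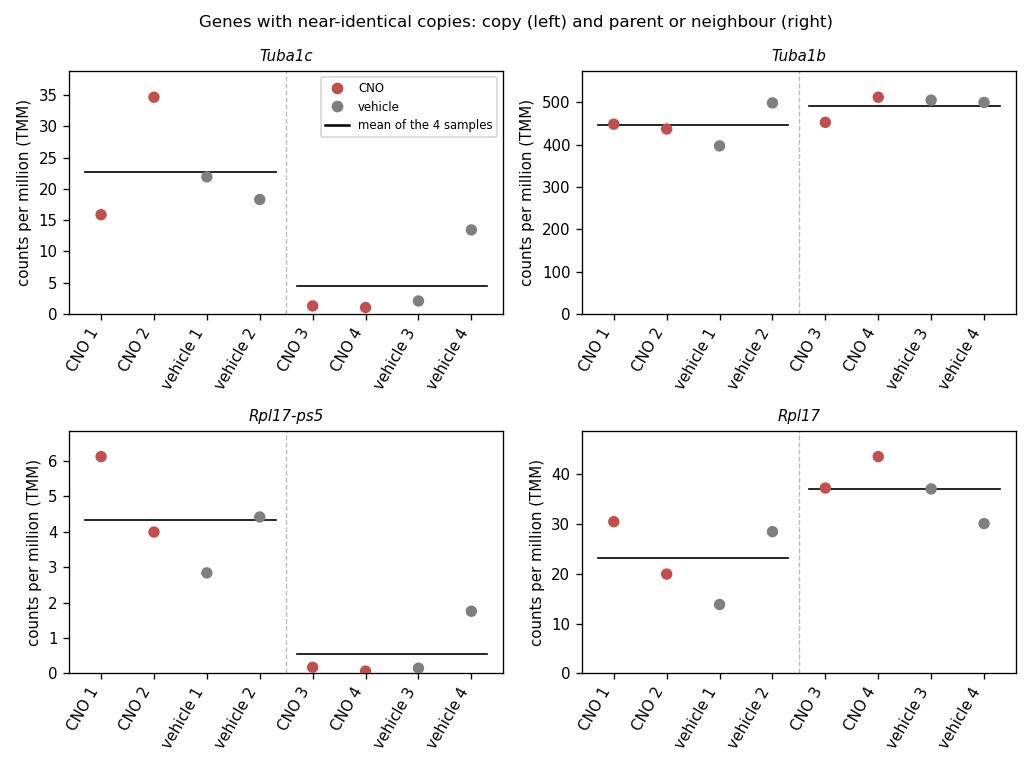
TMM-scaled CPM of Tuba1c, Tuba1b, Rpl17-ps5 and Rpl17 in each of the 8 samples (points, CNO red and vehicle grey), with the mean of each side of 4 samples as a line. Tuba1c lies at 15.9 to 34.7 CPM in replicates 1 and 2 and at 1.03 to 13.4 CPM in replicates 3 and 4, while Tuba1b lies between 397 and 512 CPM in all samples, and vehicle replicate 4 is the highest sample of its side for Tuba1c and Rpl17-ps5 on the left.

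Some genes with copies were also neighbours, and so were some genes without copies. With set-apart genes chained where their starts were less than 1 Mb apart, 6 genes higher in replicates 3 and 4 lay on chr2:176141591-177905784, all 6 of them protein-coding models with shared sequence, at log2 differences of 0.63 to 1.96. Gm14306 in that chain had 1.16 to 1.84 CPM in replicates 1 and 2 and 2.08 to 9.79 CPM in replicates 3 and 4. A chain of 4 with shared sequence, Gm6356 among them, lay on chr14:5939225-7315049 at 0.73 to 3.29. In the other direction, 7 genes with shared sequence lay on chr4:41893388-42589938, at -1.19 to -0.81. These chains with shared sequence are of loci that hold tandem copies in the mouse reference, and reads can be exchanged between their members. Some other chains held no gene with shared sequence. Among them were 6 genes on chr3:156646320-158298752, 5 on chr13:23583670-25210706 and 5 on chr17:51745529-51846114, all higher in replicates 1 and 2. The chain on chromosome 17 holds the 4 intronic models of Satb1 given above, so it is not a separate observation. That on chr3:156646320-158298752 holds genes of the classes TEC and protein coding.

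**Figure D4:**
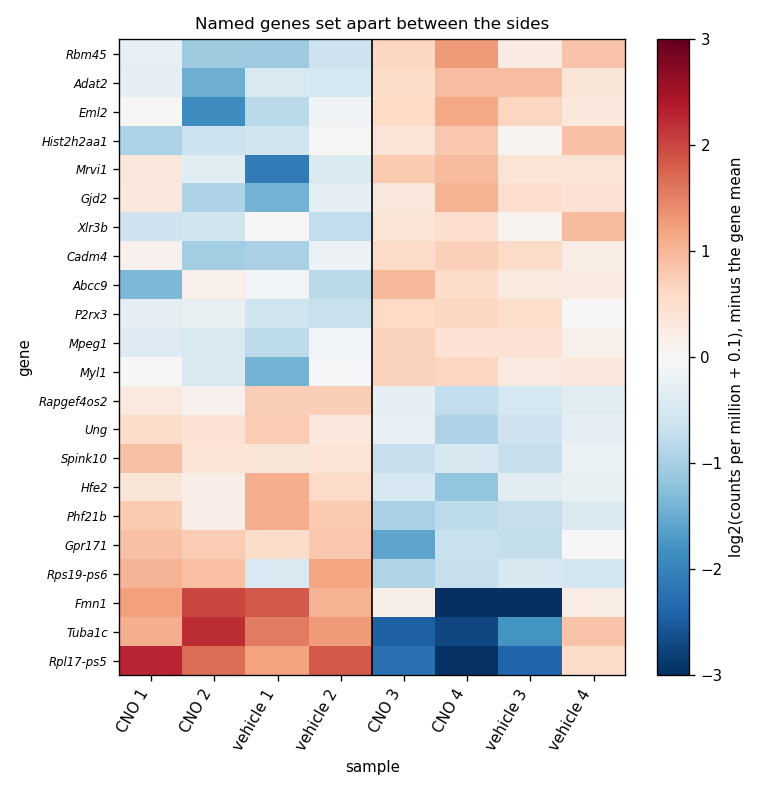
Log2(CPM + 0.1) of the named genes with the largest differences, 12 higher in replicates 3 and 4 and 10 higher in replicates 1 and 2, minus the gene's mean over the 8 samples (colour, from -3 to 3), with genes in rows and samples in columns and a line between the sides. The upper 12 genes are higher in CNO and vehicle replicates 3 and 4 and the lower 10 in replicates 1 and 2, and vehicle replicate 4 is in between for Tuba1c and Rpl17-ps5.

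Of the genes set apart, 22 of the 61 higher in replicates 3 and 4 and 231 of the 308 higher in replicates 1 and 2 had a clone, Gm or Rik symbol, and the 12 largest of the others were taken in each direction. Among those higher in replicates 3 and 4, the RNA-binding protein gene Rbm45 led, with 4.11, 2.26, 2.21 and 3.12 CPM in CNO 1, CNO 2, vehicle 1 and vehicle 2, and 7.56, 12.01, 5.82 and 8.94 CPM in CNO 3, CNO 4, vehicle 3 and vehicle 4. All 4 samples numbered 3 or 4 were above the rest, and the log2 difference was 1.54 ± 0.24 (SE). Adat2, the catalytic subunit of a tRNA adenosine deaminase, had 0.5705 to 1.42 CPM and 2.28 to 3.45 CPM, a log2 difference of 1.41 ± 0.28 (SE). Eml2, a microtubule-binding protein gene and the most abundant of the 12 by TPM, had 23.6 to 88.4 CPM and 106 to 194 CPM, at 1.21 ± 0.35 (SE).

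The other 9 ranged from 0.88 to 1.14. Gjd2 encodes connexin 36, the gap junction protein that couples PV+ interneurons electrically, and had 6.06, 2.51, 1.74 and 4.01 CPM in CNO 1, CNO 2, vehicle 1 and vehicle 2, and 6.13, 10.1, 6.92 and 6.62 CPM in CNO 3, CNO 4, vehicle 3 and vehicle 4. CNO replicate 1 was thus just below the lowest sample of the other side, and the log2 difference was 1.07 ± 0.31 (SE). Abcc9, a subunit of the potassium channel of pericytes, was at 0.96 ± 0.31 (SE), Cadm4, a cell adhesion molecule, at 0.97 ± 0.24 (SE), and P2rx3, an ATP-gated channel, at 0.92 ± 0.16 (SE). Mrvi1, a target of cGMP signalling in smooth muscle, was at 1.13 ± 0.30 (SE), Myl1, a myosin light chain, at 0.88 ± 0.23 (SE), and Mpeg1, a pore-forming protein of macrophages, at 0.88 ± 0.20 (SE). Hist2h2aa1, at 1.14 ± 0.26 (SE), and Xlr3b, at 0.99 ± 0.21 (SE), share 89.7% and 68.8% of their words with other genes.

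Of the genes taken in the other direction, 3 were the copies given above, Tuba1c, Rpl17-ps5 and Rps19-ps6. Phf21b, which encodes a PHD finger protein that reads chromatin, had 7.31, 4.86, 9.08 and 7.24 CPM in CNO 1, CNO 2, vehicle 1 and vehicle 2, and 2.08, 2.38, 2.58 and 3.09 CPM in CNO 3, CNO 4, vehicle 3 and vehicle 4. The sides were far apart in both treatments, with a log2 difference of -1.49 ± 0.17 (SE). Gpr171, a G protein-coupled receptor gene that lies in an intron of Med12l, had 2.12 to 2.69 CPM and 0.407 to 1.43 CPM, at -1.51 ± 0.30 (SE). Ung, the uracil-DNA glycosylase of base excision repair, had 5.96 to 8.09 CPM and 2.46 to 3.96 CPM, at -1.04 ± 0.18 (SE). Hfe2, the hemojuvelin gene of iron metabolism, was at -1.19 ± 0.22 (SE), the protease inhibitor gene Spink10 at -1.11 ± 0.22 (SE) and the antisense gene Rapgef4os2 at -1.004 ± 0.202 (SE). A second gene record under the symbol Fmn1, without a place in the annotation used here, was at -2.47 ± 0.83 (SE) with 0 counts in CNO replicate 4 and in vehicle replicate 3.

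The markers of the tagged cells were abundant. Pvalb, the calcium-binding protein that defines the class, had a mean of 907 TPM and Gad1, the enzyme that makes GABA, a mean of 1227 TPM over the 8 samples. Slc17a7, the vesicular glutamate transporter of pyramidal cells, was also present at 433 TPM, so RNA of other cells was in all libraries. In a bulk sample, fewer cells of a type and less RNA per cell cannot be told apart.

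The PV+ interneuron list was higher in replicates 3 and 4, and the size of the difference depended on single vehicle samples. All 12 genes had positive log2 differences, with a median of 0.38 where all genes tested had 0.02, and none of them separated the sides. Pvalb had 383 and 288 CPM in CNO 1 and 2, 99.7 and 359 CPM in vehicle 1 and 2, 369.7 and 446 CPM in CNO 3 and 4, and 389.7 and 329 CPM in vehicle 3 and 4. Vehicle replicate 1 was the lowest sample by far and the others overlapped, and the log2 difference of 0.47 ± 0.31 (SE) was 0.17 without that library and 0.84 without vehicle replicate 2. The median of the list was 0.22 in the CNO samples and 0.73 in the vehicle samples, and it was 0.17 with 9 of 12 positive when vehicle replicate 1 was left out and 0.62 when vehicle replicate 2 was. GABAergic neuron genes behaved alike, at 0.34 for 10 genes and 0.17 without it.

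Nuclear-encoded respiratory chain genes were higher in replicates 3 and 4 for 78 of 79, with a median of 0.32, and of 0.12 without vehicle replicate 1 and 0.55 without vehicle replicate 2. Cytosolic ribosomal protein genes were higher for 82 of 83, with a median of 0.29, and of 0.15 and 0.45 without those libraries. Neither list held a gene that was set apart, and 4 of the 83 ribosomal protein genes did not overlap and were higher in replicates 3 and 4, beside 3.02% of all genes tested. Rpl10a, which the construct also encodes, was at 0.68 ± 0.25 (SE), with 78.4 to 234 CPM and 227 to 353 CPM, and at 0.46 without vehicle replicate 1. Reads of the endogenous and the tagged transcript were not told apart here. The median log2 difference was -0.04 in the lowest 25% of coding genes by TPM and 0.12 in the highest 25%, and -0.03 and 0.06 without vehicle replicate 1. In coding genes with transcripts of up to 1500 bases it was 0.12, and 0.04 without that library.

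Genes of blood vessels were higher in replicates 3 and 4. The 11 endothelial markers were all positive, with a median of 0.50, and 0.52 without vehicle replicate 1, but the value depended on the CNO samples: it was 0.26 without CNO replicate 1 and 0.83 without CNO replicate 2. The 9 mural cell markers were all positive, with a median of 0.50, and 0.40 without vehicle replicate 1. Cldn5, a tight junction protein of brain endothelium, had 7.42 and 15.8 CPM in CNO 1 and 2, 9.77 and 9.99 CPM in vehicle 1 and 2, 20.4 and 13.5 CPM in CNO 3 and 4, and 14.9 and 12.3 CPM in vehicle 3 and 4. CNO replicate 2 lay among the samples of the other side, and the log2 difference of 0.50 ± 0.21 (SE) was 0.31 without CNO replicate 1. Abcc9 was the single marker of both lists whose sides did not overlap, 1 of 9 mural and 0 of 11 endothelial markers. Among all genes tested, 3.02% did so in that direction. Striatal neuron markers were positive for 11 of 12 genes, with a median of 0.38, and 0.44 with all 12 positive without vehicle replicate 1, and of 0.19 without CNO replicate 4. Adcy5 and Gng7, 2 of the 12, did not overlap between the sides and were higher in replicates 3 and 4. Penk, the enkephalin precursor, had 14.5 to 31.6 CPM and 21.2 to 40.4 CPM, at 0.56 ± 0.14 (SE), with overlapping sides.

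Microglia and pyramidal cell markers ran in the opposite direction. Of 15 microglia markers, 14 were lower in replicates 3 and 4, with a median of -0.24 with and without vehicle replicate 1. Without that library 3 of the 15 were higher, and without CNO replicate 2 the median was -0.16. Trem2 alone did not overlap (1 of 15, against 6.38% of all genes tested), and the receptor gene P2ry12 was at -0.39 ± 0.12 (SE). Of 15 pyramidal cell markers, 12 were lower, with a median of -0.15 and -0.09, and 3 of the 15 (20%, against 6.38% of all genes tested) did not overlap in that direction. Nrgn, a calmodulin-binding protein of pyramidal cells, was at -0.34 ± 0.12 (SE), and Camk2a, in the same list, at 0.21 ± 0.09 (SE). Other glial markers had smaller medians, which depended on single libraries. Astrocyte markers were at -0.06 with 9 of 14 lower, at -0.03 without vehicle replicate 1 and at -0.01 without CNO replicate 2. Oligodendrocyte markers were at -0.08 with 12 of 15 lower. Their median was -0.05 with 6 of 15 higher without vehicle replicate 1, and -0.02 without CNO replicate 2. Oligodendrocyte precursor markers were at -0.11 with 4 of 6 lower, but at -0.15 in the CNO samples and 0.11 in the vehicle samples. Their median was -0.08 with 3 of 6 higher without vehicle replicate 1, and 0.02 without CNO replicate 2. The part of any of these cell types in the differences of other genes was not tested.

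Genes of the endoplasmic reticulum stress response were 1 of several lists that were modestly higher in replicates 3 and 4, with and without vehicle replicate 1. Cytosolic heat shock genes were higher for 13 of 13, with a median of 0.22, and of 0.12 without that library. Proteasome genes were higher for 36 of 38 (0.19 and 0.11), and vesicle release genes for 17 of 20 (0.19 and 0.13). Of 15 unfolded protein response genes, 14 were higher in replicates 3 and 4, with a median of 0.24 and 0.20 without vehicle replicate 1, and 5 of them, all chaperones or folding enzymes of the endoplasmic reticulum (Calr, Hsp90b1, Pdia6, Pdia4 and Hspa5), did not overlap between the sides, where 3.02% of all genes tested did so in that direction. Hspa5, the chaperone BiP, had 142 and 149 CPM in CNO 1 and 2, 107 and 138 CPM in vehicle 1 and 2, 169 and 192 CPM in CNO 3 and 4, and 181 and 161 CPM in vehicle 3 and 4. Its log2 difference was 0.39 ± 0.11 (SE), and that of Calr, calreticulin, was 0.31 ± 0.10 (SE). Among perineuronal net genes, which form the matrix around PV+ interneurons, 11 of 15 were higher in replicates 3 and 4, with a median of 0.25 and 0.20. Acan, the core proteoglycan of the net, was set apart, with 2.26 to 3.84 CPM and 4.56 to 4.98 CPM, at 0.67 ± 0.17 (SE). Scn4b, a sodium channel subunit of fast-spiking cells, was set apart as well, with 59.0 to 102 CPM and 110 to 143 CPM, at 0.65 ± 0.15 (SE), while the 45 voltage-gated sodium and potassium channel genes tested had a median of 0.04.

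Immediate early genes, which neuronal activity induces within minutes, showed no common difference between the sides, with 19 of 35 higher in replicates 3 and 4 and a median of 0.03. Circadian clock genes (-0.03, n = 19) and glucocorticoid response genes (-0.03, n = 12) had medians near 0.

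**Figure D5:**
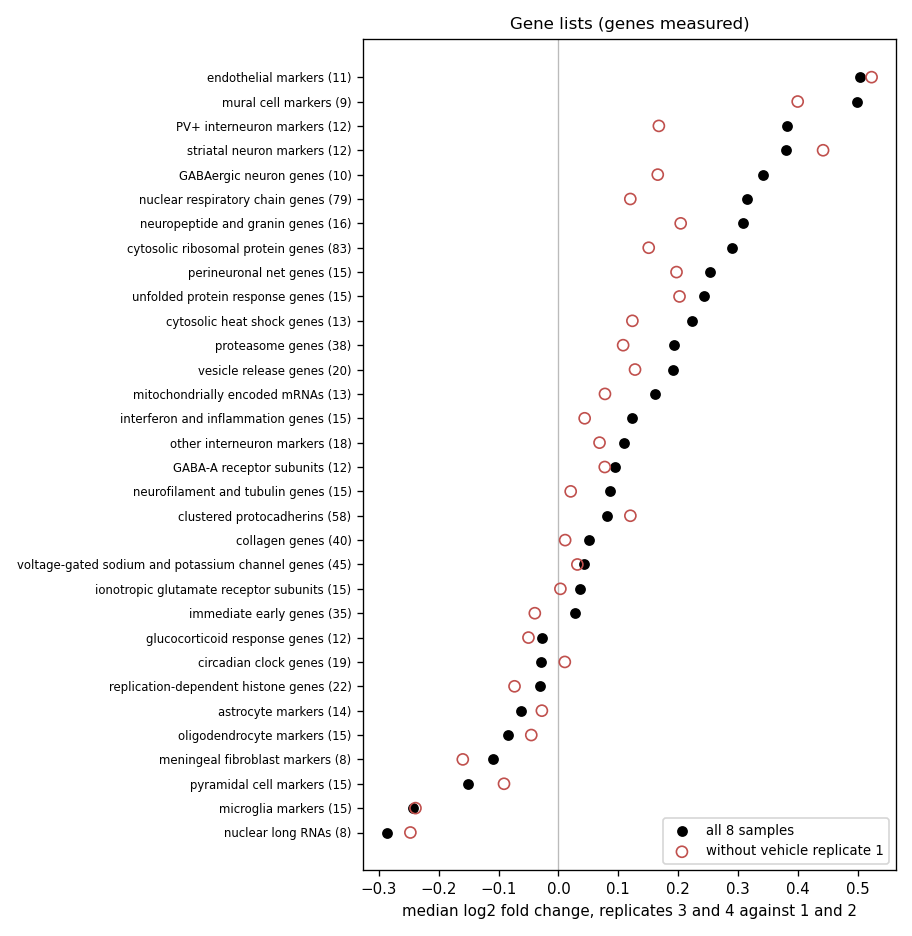
Median log2 difference between replicates 3 and 4 and replicates 1 and 2 for each gene list with 8 or more genes measured (number in brackets), with all 8 samples (filled points) and without vehicle replicate 1 (open points). The PV+ interneuron list is at 0.38 with and 0.17 without that library and the respiratory chain list at 0.32 and 0.12, whereas the endothelial list is at 0.50 and 0.52 and the microglia list at -0.24 in both.

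The drug was compared with and without the side as a term. With treatment alone, no gene of 17495 passed (0%; edgeR's quasi-likelihood test, Benjamini-Hochberg adjusted p under 0.05, over 1.5-fold, mean TPM over 1). An unadjusted p under 0.05 was reached by 716 genes (4.09%), a share below what that threshold gives by chance. The side is a term that was picked from the expression of these same libraries and so lowers their residual spread by that choice. With the side added, 3 genes passed (0.0171%), Fos, Fosb and Th, each at an adjusted p of 0.0457 in edgeR's quasi-likelihood test. In that fit 1193 genes (6.82%) had an unadjusted p under 0.05. Fos, an immediate early transcription factor, had 32.2, 54.4, 40.3 and 69.5 CPM in CNO replicates 1 to 4 and 12.5, 15.8, 11.3 and 11.8 CPM in vehicle replicates 1 to 4. All CNO samples were above all vehicle samples, at a log2 fold change of 1.93 ± 0.23 (SE), and the adjusted p of edgeR's quasi-likelihood test was 0.0520 without the side. Fosb, of the same family, was at 1.86 ± 0.22 (SE), and Th, tyrosine hydroxylase, at 1.71 ± 0.21 (SE), both higher in 4 of 4 CNO samples than in any vehicle sample. Dusp1, a phosphatase that limits MAP kinase signalling, was at 1.17 ± 0.15 (SE) with an adjusted p of 0.0535 in the same edgeR fit. The sides overlapped for these 4 genes.

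The other genes that the study follows differed between the sides by less than 1.5-fold or with overlapping samples. Vgf was at 0.50 ± 0.13 (SE), Scg2, a granin, at 0.53 ± 0.16 (SE), Adamts1, a matrix protease, at 0.51 ± 0.14 (SE) and Lgals1, a galectin, at 0.71 ± 0.26 (SE). The muscarinic receptor gene Chrm3 was at 0.37 ± 0.18 (SE), and at 0.21 without vehicle replicate 1.

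Whether the difference between the sides depended on the drug was tested as an interaction. No gene of 17495 passed (0%; edgeR's quasi-likelihood test), the lowest adjusted p was 0.234, for AC114588.1, and 345 genes (1.97%) had an unadjusted p under 0.05. That share was below what the threshold gives by chance. The sides were picked from the expression of both treatments in these same libraries, and such a choice can favour agreement between the treatments. The lack of calls therefore does not show that the difference is independent of the drug. With 2 samples in each cell of this design, on counts simulated for all 17495 genes the interaction test found 74 of 100 genes that were changed by 2 on the log2 scale and 13 of 100 that were changed by 1, so interactions of the smaller size would mostly be missed. The simulated spread came from the fit with the side as a term, which the choice of sides lowers. These shares can therefore be too high for these data.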

How the data were processed

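RNA of 8 samples (CNO and vehicle, 4 each, replicate numbers from the labels) was sequenced with the SMARTer Ultra Low kit, paired-end. The authors used Trim Galore on the reads, STAR and Salmon on GRCm38/mm10, and deposited an estimated count and a TPM per gene, summarised with tximport. TPM is relative to transcript length and library, so it keeps no depth. The sides, members and gene lists were chosen with earlier results of these data known.

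Counts were rounded, genes with under 10 counts in 4 or more of the 8 samples were removed, and TMM factors were computed. Log2 differences and standard errors come from glmQLFit in edgeR 4.0.16 (R 4.3.3) with treatment and side as terms. Overlap was judged on log2 CPM with a prior count of 2. For the drug and the interaction, p-values of edgeR's quasi-likelihood test were adjusted by the Benjamini-Hochberg method. The scripts were tested on simulated data. Gene classes, positions and shared 31-base words come from GENCODE M21, which held 98.8% of the gene identifiers. A model is intronic if it lies wholly within a coding gene and no exon of it overlaps a coding gene's exon. Named genes were the 12 largest differences in each direction among set-apart genes without a clone, Gm or Rik symbol, up to 4 genes of highest TPM in each list with any set-apart member, the genes the study follows and any gene called. Of the genes so named, 2 higher in replicates 1 and 2 are not reported here. Intronic models, hosts and copies were named after their values had been seen. At the depths here 3 counts equal 0.0607 to 0.0681 CPM, and such limits cover counting error only. Replicates of a group differed by more than sampling noise in all 12 pairs (chi-square per degree of freedom of 18.1 or more).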

Additional observations from a re-analysis of the deposited data

Results flagged for a closer look

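Among 102 values reported for the 8 samples (5 library measures, 38 gene lists by their mean log2 CPM and 59 genes), each examined within both sides of 4 samples, 14 of 204 groups held a sample far from the other 3 by Dixon's ratio of gap to range at its 95% critical value, where chance flags about 1 in 20. The sample was vehicle replicate 1 in 4 of them: low for cytosolic heat shock genes (ratio 0.837) and neuropeptide and granin genes (0.858), and high for RP23-15K13.2 (0.927) and Lrig2 (0.844). CNO replicate 2 was high for meningeal fibroblast markers (0.892) and immediate early genes (0.839), CNO replicate 1 was high for Spink10 (0.918), and vehicle replicate 2 was high for replication-dependent histone genes (0.855). On the other side, CNO replicate 4 was low for oligodendrocyte markers (0.865) and collagen genes (0.881) and high for proteasome genes (0.861), and CNO replicate 3 was low for striatal neuron markers (0.830). Vehicle replicate 4 was low for P2rx3 (0.857) and high for Gm14150 (0.849), at 2.07 on the log2 scale where the other 3 samples of its side lay between -0.32 and 0.04.

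The list of ionotropic glutamate receptor subunits ran in opposite directions in CNO and vehicle without overlap of samples: the mean log2 CPM of replicates 3 and 4 minus that of replicates 1 and 2 was -0.09 in CNO and 0.05 in vehicle, a difference of -0.14 that was not tested.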

How the results depend on the processing

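The intronic models on the host's strand, 457 as reported, kept a negative median under all 15 alternatives, which were chosen after the data were seen. Without the count filter, and with 1 library left out, where it was applied anew, the set of models could differ. The median log2 difference was -0.84 as reported and between -0.91 and -0.77 with 1 library left out. It was -0.35 on log2(TPM + 1), a scale that compresses low values. The count of genes higher in replicates 3 and 4, 61 as reported, was 17 with a 2-fold criterion and 92 with no TPM criterion. It was 68 to 194 with 1 library left out, with 194 without CNO replicate 1, 138 without CNO replicate 2, 102 without vehicle replicate 2 and 115 without vehicle replicate 4. The count higher in replicates 1 and 2, 308 as reported, was 116 with a 2-fold criterion and 489 with no TPM criterion, and 286 to 488 with 1 library left out, with 488 without CNO replicate 1. A comparison of 3 samples against 4 separates more easily than 4 against 4. Of 885 alternative values for the 59 genes named, 864 stayed within the spread of replicates, and 19 changed sign, in Fos, Lrig2, Ank2, Gtf2i and Pdcd10, whose reported values were smaller than that spread. Of 570 for the 38 gene lists, 50 changed sign, in 15 lists, and 9 of these were in lists whose reported median exceeded the spread of replicates: other interneuron markers (-0.042 on log2(TPM + 1) and -0.063 on log2(TPM + 0.1)), clustered protocadherins (-0.00081 on log2(TPM + 1)), GABA-A receptor subunits (-0.033 on both log2(TPM + 1) and log2(TPM + 0.1)) and sodium and potassium channel genes (-0.017 with library size alone, -0.034 on log2(TPM + 1), -0.060 on log2(TPM + 0.1), and between -0.0025 and 0.10 with 1 library left out, below 0 without vehicle replicate 2). The cause was not tested.

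The number of genes called for CNO against vehicle was 0 as reported, 3 with a side block, 4 with no count filter (Fos, Fosb, Th and Dusp1), 10 in DESeq2, 12 with robust dispersions and a likelihood ratio test, 23 when the side was added to that test, and 0 to 2 with 1 library left out, the 2 being Fos and Fosb without CNO replicate 1. With a replicate block it was 0, with 765 genes (4.37%) at an unadjusted p under 0.05. Samples of the same number deviated from their group means with correlations of 0.026, -0.030, 0.16 and 0.24, so the numbers do not pair the samples by this check. The interaction called 0 genes as reported, 51 with no count filter, 1 in DESeq2 (AC114588.1), and 0 to 3 with 1 library left out (3 without CNO replicate 4 and 2 without vehicle replicate 1). The difference in total counts was 2913460 to 4165230 with 1 library left out. The difference in transcript lengths was -0.034 to -0.020 with 1 library left out. The cause of these changes was not tested.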
